A study of Mus musculus with 16 samples.

Results

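Wounds of diabetic db/db mice treated with estrogen were compared with wounds of db/db mice that received the sesame oil vehicle, on the arrays labelled day 14. The comparison rests on the 2 arrays titled as estrogen and the 2 titled as vehicle, that is 4 of the 16 arrays of the series, chosen by title and labelled day and by no measured value. Both groups were female C57BLKS/J Iar-+Lepr db/+Lepr db mice, in which both copies of the leptin receptor gene are mutated and which become obese and hyperglycaemic and heal slowly, and were 10 weeks old at the start. Both received full-thickness wounds on the back with a 4 mm biopsy punch. The db/db + estrogen group had estradiol benzoate in sesame oil put on the wound daily (0.75 μg/g/day), and the db/db + vehicle group had the oil alone, so that oil was common to both. The mice were not described as ovariectomized. The pieces harvested held the wound with the intact skin around it, and part of each was used for RNA. No label says that the arrays of a group came from separate mice, so that the p-values measure the spread between these samples, which may in part be technical. Other arrays of the series held untreated db/db wounds and wounds of wild-type C57BL/6J mice (WT group), and these entered the fit and are quoted where a level needs a reference. Days are given as labelled, because the deposited values under day 14 are those that the study's tables list under day 7, and which of them was exchanged was not settled.

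Estrogen acts through nuclear receptors that bind DNA at estrogen response elements and raise the transcription of target genes such as the progesterone receptor. Keratinocytes, fibroblasts, endothelial cells and leukocytes of the skin all carry estrogen receptors. A wound passes through inflammation, growth of granulation tissue and new vessels, and re-epithelialization by dividing keratinocytes, and in diabetic mice the inflammatory phase is prolonged.

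All values are log2 levels of the array signal, which is the brightness of a probe after background subtraction, relative to the 75th percentile of the same array. A level of 0 therefore equals that percentile, and a difference of 1 is a 2-fold difference in the signal of the same probe. The 75th percentile of the signal was 2034 and 2290 on the estrogen arrays and 2435 and 2423 on the vehicle arrays, between 72.6% and 75.9% of probes were well above background, and no spot was saturated. The precision was limited by the number of arrays, 2 in each group, with which an exact two-sided permutation test cannot give a p below 0.333. The keratins checked, Krt1, Krt5, Krt6a, Krt10, Krt14, Krt16 and Krt17, lay above the 75th percentile on all 4 arrays, but not all were steady. On estrogen array 2 Krt1 stood at 2.19, Krt10 at 3.13, Krt6a at 3.47 and Krt17 at 5.44. Vehicle array 2 read 5.13, 6.08, 4.56 and 6.54 for the same genes. Krt5 and Krt16 varied less. Krt5, of basal keratinocytes, stood at 7.42 and 7.11 on the estrogen arrays and 7.44 and 7.48 on the vehicle arrays, and the wound keratin Krt16 at 7.67 and 7.16 with estrogen and 7.56 and 7.48 with vehicle.

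Estrogen array 2 stood apart from the other 3 arrays. Of the 28976 probes tested, 10.8% differed by more than 2-fold between the estrogen arrays, against 3.27% between the vehicle arrays. Estrogen array 1 differed in this way from vehicle array 1 for 3.25% of probes and from vehicle array 2 for 3.62%. For estrogen array 2 the shares were 12.8% and 9.42%, and against the untreated db/db arrays they were 6.43% and 8.63%. Estrogen array 1 was thus as near to a vehicle array as the vehicle arrays were to each other, and estrogen array 2 was nearer to the untreated db/db arrays than to its own replicate. Estrogen array 1 shared its slide with vehicle array 1 and both untreated db/db arrays, and estrogen array 2 shared another slide with vehicle array 2, so each estrogen array was also set against the vehicle array of its own slide.

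Taken singly, estrogen array 1 was more than 2-fold higher than both vehicle arrays for 150 probes and lower for 252, that is 1.39% of the probes tested. Estrogen array 2 was higher for 992 and lower for 1174, or 7.48%. In the other direction, vehicle array 1 lay more than 2-fold from both estrogen arrays for 391 probes and vehicle array 2 for 303. There were 57 probes higher on both estrogen arrays and 42 lower on both, whereas 81 were lower on array 1 and higher on array 2 and 13 the reverse. No test was made of an array taken singly, since 1 array has no spread of its own.

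**Figure D1:**
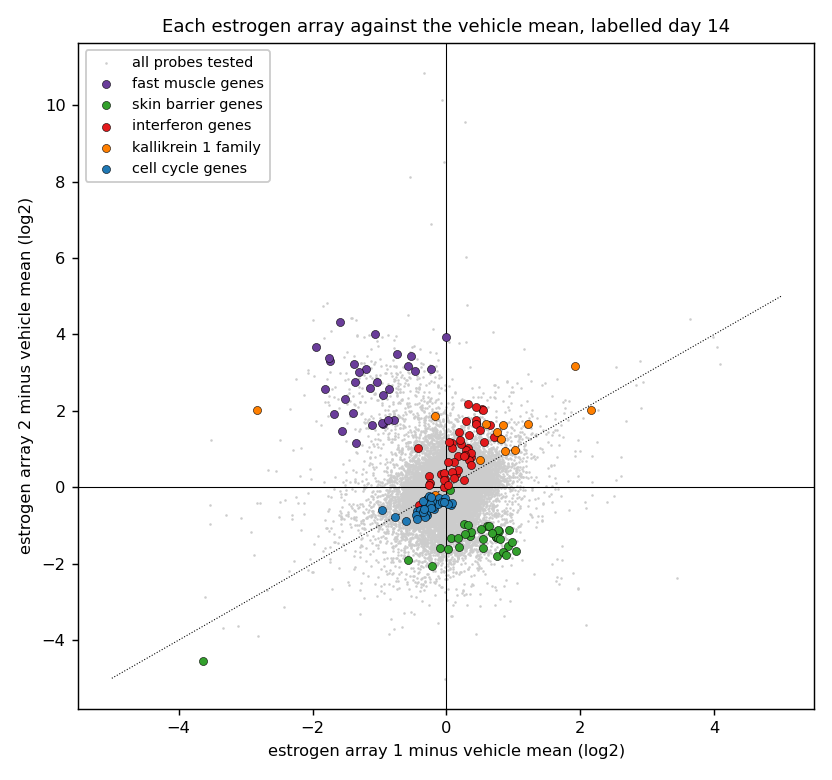
Each point is a probe, with its log2 level on estrogen array 1 (x axis) and estrogen array 2 (y axis) minus the mean of the vehicle arrays, the dotted line marks equal differences, and colours mark 5 gene lists. Fast muscle genes lie left of 0 and above 0, barrier genes mostly right of 0 and below 0, and most kallikrein and interferon genes lie above 0 on array 2, with cell cycle genes below 0 on both arrays or close to 0 on array 1.

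A probe was called where limma's two-sided unadjusted p was below 0.05 and the fold change above 2. Estrogen and vehicle differed at 285 of 28976 probes (0.984%), 147 higher with estrogen (0.507%) and 138 lower (0.476%), and the called probes with a symbol named 210 genes. After Benjamini-Hochberg adjustment 0 probes (0%) passed 0.05, with a lowest adjusted p of 0.0943, while 1558 probes (5.38%) had an unadjusted p below 0.05 at any fold change. Without estrogen array 1 the calls numbered 1844 and without vehicle array 2 they numbered 437. The calls below are therefore those of an unadjusted threshold. Among them, 280 had groups that did not overlap, and for 81 both estrogen arrays lay at least 2-fold from both vehicle arrays. Over all probes, both estrogen arrays lay above both vehicle arrays for 19.3% and below them for 21.1%. With the normexp correction this balance turned, to 7981 probes above and 4648 below, from 5581 and 6113.

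Genes that respond to estrogen in other tissues were read first. Pgr, the progesterone receptor and a direct target of the estrogen receptor, was at −1.31 and −0.63 on the estrogen arrays and −2.45 and −1.53 on the vehicle arrays. The untreated db/db arrays of the same label read −9.66 and −9.14, which was not well above background. Pgr was called higher with estrogen, by 1.02 ± 0.36 (SE) or 2.03-fold, with a limma adjusted p of 0.873, and the groups did not overlap. The call was lost without estrogen array 2, without vehicle array 1, with the normexp or quantile scaling, and in a fit of the 4 arrays alone. Vehicle wounds stood at least 38.5-fold above untreated wounds, and over both labelled days this Pgr probe was well above background on 8 of 8 arrays with oil and 0 of 8 without it. The signal of this target was thus present in both groups of the comparison, on estrogen array 2 too, and not well above background in untreated db/db or WT wounds. Whether the vehicle wounds met estrogen or answered to oil was not tested, and every difference given here is from a vehicle group with this signal. A second Pgr probe read −4.07 and −3.46 with estrogen and −5.62 and −4.43 with vehicle, a difference of 1.27 ± 0.62 (SE) that was not called. It was well above background on 8 of 8 arrays with oil and 1 of 8 without it, the highest of these at −6.44.

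Greb1, a growth regulator first known as an estrogen-induced gene of breast cancer cells, was at 2.01 and 2.33 with estrogen, 0.50 and 1.87 with vehicle and −4.66 and −3.85 in untreated wounds. Its difference of 0.98 ± 0.53 (SE) between estrogen and vehicle was not called, and vehicle lay 5.44 above untreated. Ngfr, the low-affinity receptor for nerve growth factor, was at 2.50 and 2.54 with estrogen, 0.48 and 1.63 with vehicle and −2.36 and −2.52 untreated. Among the db/db wounds both genes showed the same order as Pgr, with estrogen wounds highest, vehicle wounds below them, and untreated wounds far lower. For Ngfr too the step from vehicle to estrogen (1.47 ± 0.78, SE) was not called. In WT wounds of the same label, also without oil, Greb1 read −1.85 and −1.87. Ngfr read 0.26 and −2.14 there, so that 1 WT array was near vehicle array 1, unlike for Pgr.

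**Figure D2:**
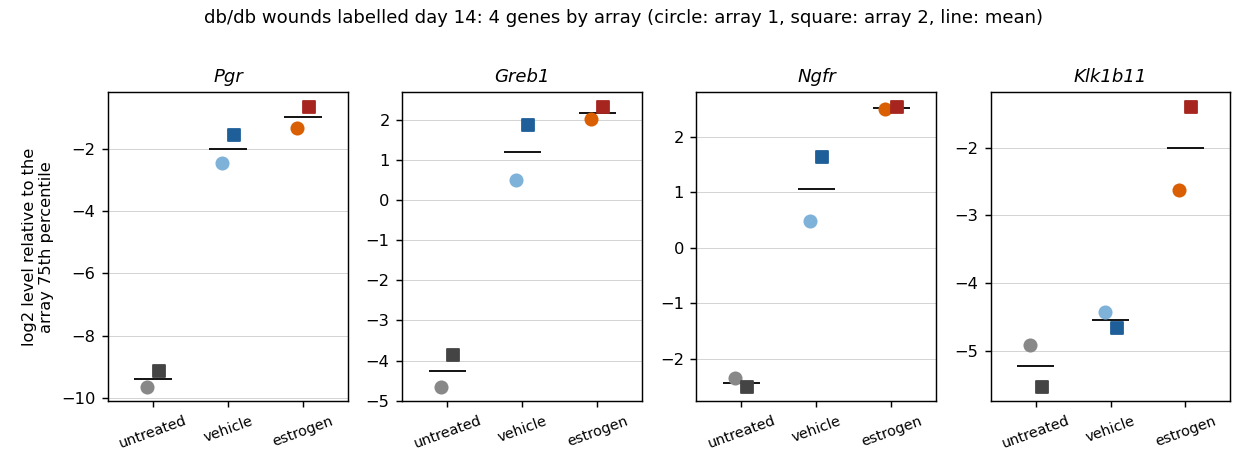
Log2 level relative to the array's 75th percentile (y axis) of Pgr, Greb1, Ngfr and Klk1b11 in untreated, vehicle and estrogen db/db wounds labelled day 14, with 1 point an array and the group mean as a line. Pgr, Greb1 and Ngfr are far lower in the untreated wounds than in the vehicle wounds, whereas vehicle and untreated wounds lie close together for Klk1b11.

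The receptors themselves gave no call. Esr1, which encodes estrogen receptor alpha, was at −2.04 and −1.34 with estrogen and −2.59 and −1.72 with vehicle, with overlapping groups. Of the 33 estrogen-responsive genes tested, 1 was called higher (Pgr) and 2 lower, against 0.507% and 0.476% of all probes tested. The 2 lower were the trefoil factors Tff1 and Tff3, which are secreted peptides of mucous epithelia. Tff1 was at −6.25 and −7.21 with estrogen and −3.82 and −5.27 with vehicle, a difference of −2.19 ± 0.58 (SE), and was well above background on 1 of the estrogen arrays only. Its call was lost with normexp. Tff3 was not well above background on either estrogen array, and its call was lost without estrogen array 2 or vehicle array 2. The median over the 33 genes was −0.01, against −0.00 over all probes tested.

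The kallikrein 1 family held the largest share of calls among the lists not drawn from the study's own tables. These genes encode closely related serine proteases, arranged in a cluster, of which Klk1 releases kinins from kininogen. Of 13 family members tested, 8 were called higher and 0 lower, against 0.507% and 0.476% of all probes tested. Both estrogen arrays lay above both vehicle arrays for 10, against 19.3% of all probes. Klk1b11 had the largest fold change of the named genes that were called higher and well above background on all 4 arrays, at −2.63 and −1.39 with estrogen and −4.44 and −4.67 with vehicle, or 2.54 ± 0.79 (SE), a 5.83-fold difference with a limma adjusted p of 0.873. Untreated wounds, at −4.91 and −5.54, were close to vehicle. Klk1b24 was at −3.60 and −3.16 with estrogen and −4.88 and −4.77 with vehicle, a difference of 1.45 ± 0.24 (SE) with an adjusted p of 0.433. Klk1b27 was at −5.08 and −5.20 with estrogen and −7.14 and −7.32 with vehicle, a 4.27-fold difference, and was well above background on 1 of the vehicle arrays only. For each of these genes the replicates lay closer to each other than to the other group.

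Klk1 was at −4.85 and −4.90 with estrogen and −5.74 and −6.01 with vehicle, a 2.00-fold difference. The others called, Klk1b4, Klk1b5, Klk1b8 and Klk1b22, were between 1.05 and 1.24 higher on the log2 scale. For Klk1b5, alone of the called members, untreated wounds (−3.22 and −3.94) lay above both vehicle arrays (−4.49 and −4.16). They overlapped estrogen there (−3.48 and −2.69). The 5 members that were not called were Klk1b3 (0.92 ± 0.28, SE), Klk1b26 (0.84 ± 0.72), Klk1b21 (0.61 ± 0.19), Klk1b9 (−0.18 ± 0.34) and Klk1b16 (−0.40 ± 1.34). Klk1b3 encodes the gamma subunit and Klk1b4 the alpha subunit of the nerve growth factor complex. The median of the family was 1.05, with 0.82 on estrogen array 1 and 1.64 on estrogen array 2. Within slides it was 0.58 for estrogen array 1 minus vehicle array 1 and 1.61 for estrogen array 2 minus vehicle array 2. The family was thus above vehicle on both estrogen arrays. Leaving out estrogen array 2 left 3 calls and took away that of Klk1b11, leaving out vehicle array 2 left 4, and leaving out vehicle array 1 left 6. Klk1 was not called without estrogen array 1, Klk1b5 and Klk1b22 were not called without vehicle array 1, and with another background correction (normexp) 2 of the family were called. A probe for one of these genes may also bind transcripts of its near-identical relatives, so that the gene behind each value is uncertain. All family members lay below the 75th percentile of their arrays.

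How alike these genes are is seen in the sequence before their start sites, from RefSeq on build GRCm38.p6, chromosome 7, plus strand. All 8 called genes hold the same run of 9 bases in their promoters (250 bases before to 50 after the start), written in capitals, which occurs in 0.237% of all 32851 promoters. The 60 bases around it are given for 7 of them, and the run of Klk1 lies after its start.
Klk1b11, chr7:43995784-43995843: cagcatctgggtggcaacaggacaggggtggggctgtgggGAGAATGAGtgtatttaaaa
Klk1b22, chr7:44112580-44112639: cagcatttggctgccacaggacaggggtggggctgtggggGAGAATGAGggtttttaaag
Klk1b24, chr7:44188153-44188212: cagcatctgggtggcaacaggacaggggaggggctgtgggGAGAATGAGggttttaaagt
Klk1b27, chr7:44052220-44052279: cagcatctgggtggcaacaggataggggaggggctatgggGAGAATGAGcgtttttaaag
Klk1b4, chr7:44207333-44207392: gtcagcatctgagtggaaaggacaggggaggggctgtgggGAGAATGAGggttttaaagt
Klk1b5, chr7:44216379-44216438: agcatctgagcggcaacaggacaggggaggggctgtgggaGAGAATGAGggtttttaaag
Klk1b8, chr7:43950569-43950628: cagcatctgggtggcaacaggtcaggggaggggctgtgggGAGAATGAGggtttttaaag
Compared position by position without gaps, the 21 pairs of these stretches were identical at between 48.3% and 93.3% of bases, with a median of 70.0%. The low values include pairs put out of register by an inserted or missing base, such as Klk1b8 and Klk1b5 (53.3%). The palindromic estrogen response element GGTCANNNTGACC, sought on both strands, was in the promoter of 0 of the 8 called family members and in 0.0700% of all promoters, which says only that these letters are not in this window. The genes are paralogs, and a shared run describes the family, not its response.

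Genes induced by type I interferon, which encode antiviral proteins such as ISG15, a ubiquitin-like modifier, and the 2-5A synthetases, were the other list with several calls. Of the 54 genes on the list, 49 had a named probe and 47 were tested. With estrogen 10 were called higher, namely Isg15, Ifit2, Ifit3, Rsad2, Usp18, Oas2, Oas3, Ifi44, Cmpk2 and Slfn5, and 0 lower. Over all probes tested 0.507% were called higher and 0.476% lower. The fold changes of the 10 genes were small, between 2.02-fold for Slfn5 and 2.45-fold for Ifit2 and Rsad2. The median over the list was 0.56.

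The values on the single arrays were uneven. Ifit3, whose protein binds viral RNA together with its relatives, was at 0.00 and 1.86 with estrogen and −0.03 and −0.62 with vehicle, a difference of 1.26 ± 0.49 (SE) with a limma adjusted p of 0.873. Isg15 was at 2.64 and 3.97 with estrogen and 2.54 and 1.87 with vehicle, 2.15-fold higher. Rsad2, which encodes viperin, was at −0.82 and 0.66 with estrogen and −1.02 and −1.74 with vehicle. In each of these the low estrogen value, on array 1, was next to the higher vehicle value, on array 1, and estrogen array 2 was far above. Oas2, a 2-5A synthetase, was at 0.95 and 1.51 with estrogen and 0.26 and 0.11 with vehicle, without overlap, but its call was lost with slide or replicate number as a fixed block, with quantile normalization, and without estrogen array 2, vehicle array 1 or vehicle array 2. Irf7, a transcription factor of the pathway, was at −1.34 and 0.11 with estrogen and −0.32 and −1.51 with vehicle and was not called.

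Over the 47 interferon genes the median was 0.22 on estrogen array 1 and 0.88 on estrogen array 2. Within slides it was 0.09 and 1.02. Without estrogen array 2 there were 0 calls, without vehicle array 2 there was 1 (Slfn5), and without estrogen array 1 there were 22. Fitted on the 4 arrays alone, without the spread of the other groups, 2 were called. Both estrogen arrays lay above both vehicle arrays for 25 of the 47 genes, against 19.3% of all probes. The interferon-inducible GTPases, which act against pathogens within cells and answer mainly to interferon gamma, gave 0 calls among 14, with a median of 0.35. The groups did not overlap for 7 of them, and over all probes 19.3% lay above vehicle and 21.1% below. Estrogen array 2, where the interferon genes were highest, also had a summed fast muscle level of 1907 against 200.1 to 482 on the other 3 arrays and a summed barrier level of 163 against 389 to 565 (units of each array's 75th percentile), and their part in the interferon result was not tested. In tissue, fewer cells of a type and less RNA per cell cannot be told apart.

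**Figure D3:**
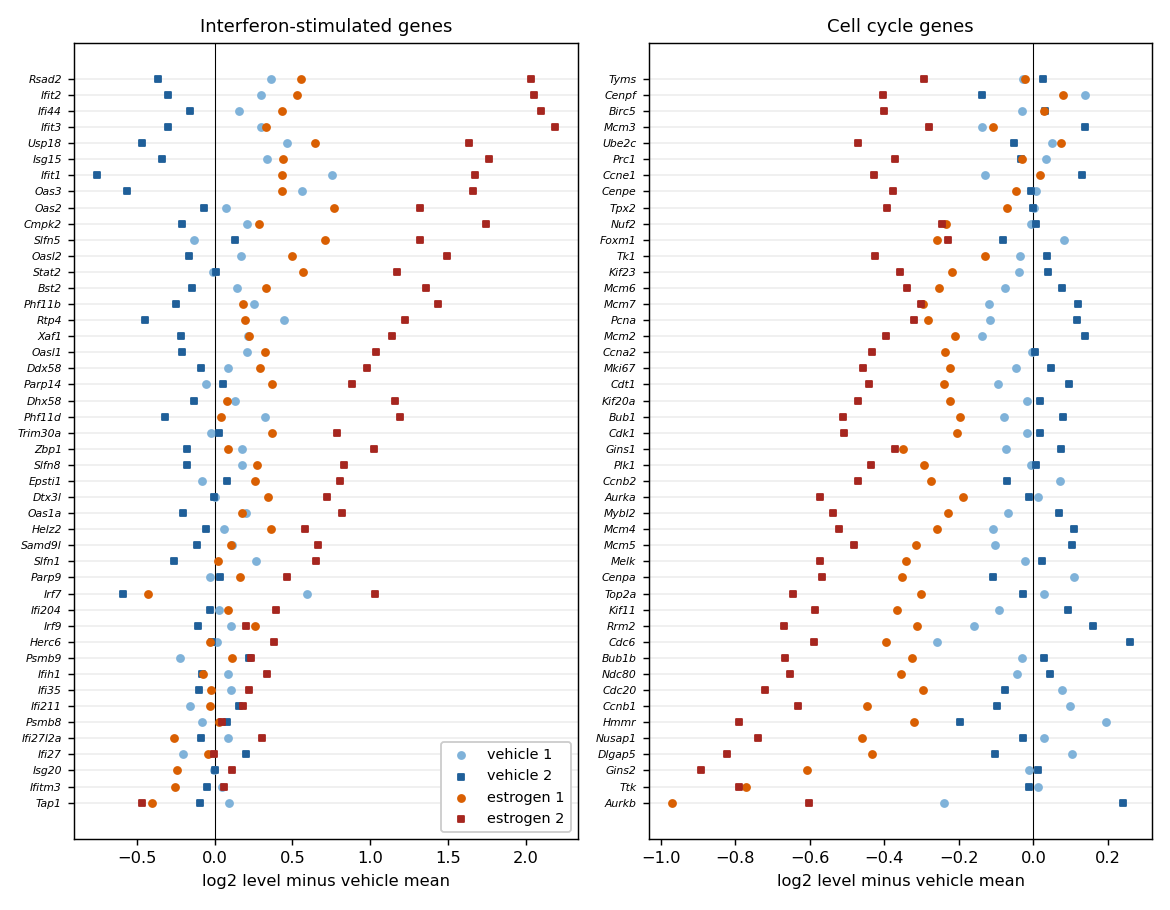
Log2 level minus the mean of the vehicle arrays (x axis) for interferon-stimulated genes (left) and cell cycle genes (right) that were tested, with 1 point an array. In the left panel estrogen array 2 lies far to the right for the upper genes while estrogen array 1 lies near vehicle array 1, and in the right panel both estrogen arrays lie left of both vehicle arrays for 39 of 46 genes.

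The interferon-stimulated response element is the promoter sequence through which type I interferon acts on these genes. Its letters GAAANNGAAA were sought on both strands. They were in the promoters of 5 of the 8 called interferon genes whose promoters were among those searched. This compares with 3.99% of all genes and 3.44% of the 32851 promoters of the same length. The list was chosen as genes induced by interferon, so that a higher share than among all genes follows from that choice. List members that were not called were not searched, and the share therefore says nothing about the calls. Oas2 and Usp18 had no promoter entry and were not searched. The 40 bases around each match, itself in capitals, are given on build GRCm38.p6 in the sense of the gene, to show how it varies between genes that were called together.
Ifit3, chr19:34583358-34583397, plus strand: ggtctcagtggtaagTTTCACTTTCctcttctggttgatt
Isg15, chr4:156200872-156200911, minus strand: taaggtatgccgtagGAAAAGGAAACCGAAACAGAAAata
Oas3, chr5:120777710-120777749, minus strand: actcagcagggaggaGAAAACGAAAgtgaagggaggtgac
Rsad2, chr12:26456548-26456587, minus strand: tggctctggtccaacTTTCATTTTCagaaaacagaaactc
Slfn5, chr11:82951932-82951971, plus strand: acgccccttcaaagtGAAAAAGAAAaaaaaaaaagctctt
Isg15 holds 3 overlapping matches in a row, the Ifit3 promoter holds another match outside the bases printed, and in Ifit3 and Rsad2 the match printed reads on the opposite strand. A match is a description of the sequence and no evidence of binding in these wounds. The estrogen response element was in 0 of the promoters searched for the called interferon genes.

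Beyond these lists, the genes with the largest fold changes among those well above background on all 4 arrays were of mixed kind. Inmt, an enzyme that methylates tryptamine and other indoles, was at −2.33 and 0.13 with estrogen and −4.17 and −2.79 with vehicle, a 5.21-fold difference (2.38 ± 0.86, SE). Aldh1a2, which makes retinoic acid, was at −3.29 and −2.04 with estrogen and −5.12 and −4.42 with vehicle (2.10 ± 0.71, SE). Kng1, the kininogen from which kallikreins release kinins, was at −0.70 and 0.95 with estrogen and −1.83 and −1.54 with vehicle, 3.51-fold higher. For all 3 the groups did not overlap and estrogen array 2 was the highest, and without estrogen array 2 or without vehicle array 1 none of the 3 was called. Kng1 was not called without vehicle array 2 either.

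Other genes had estrogen replicates that lay close together. Scube1, a secreted and membrane-bound protein with EGF-like repeats, was at −3.18 and −2.87 with estrogen and −5.06 and −4.84 with vehicle, a 3.79-fold difference with an SE of 0.37 and an adjusted p of 0.679. Dscam, an adhesion molecule of neurons, was at −4.17 and −3.67 with estrogen and −6.38 and −5.44 with vehicle, 3.97-fold higher. Fut4, a fucosyltransferase that makes the Lewis x structure of leukocytes, was at −5.51 and −5.34 with estrogen and −7.14 and −7.13 with vehicle (1.71 ± 0.25, SE, adjusted p = 0.262). In all 3 the groups lay farther apart than the replicates of either group. A second Fut4 probe gave −0.15 and was not called, so that the direction differed between the probes of this gene.

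Cd28, the costimulatory receptor of T cells, was called higher at −3.08 and −2.03 against −4.43 and −4.16, and was the only one of 22 T cell genes to be called. Ifi208, a member of the interferon-inducible p200 family, was called on 3 of its 4 probes, the first at −4.04 and −2.51 with estrogen and −5.08 and −4.93 with vehicle. Lrrc14b, Ccdc148 and Vxn completed the 12 largest, at 4.29-fold, 4.13-fold and 3.55-fold. Their limma adjusted p was 0.873, as for most genes named here. Without estrogen array 2, Cd28, Ifi208, Lrrc14b, Ccdc148 and Vxn were not called, and neither were Cd28, Ifi208 and Vxn without vehicle array 1 or Ccdc148 without vehicle array 2. Of the genes that the study listed under day 7 as higher specifically with estrogen, 5 of 7 tested were called. The study drew that list from changes against untreated db/db wounds, not against vehicle. Because the list was chosen on these samples, it is not independent evidence.

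**Figure D4:**
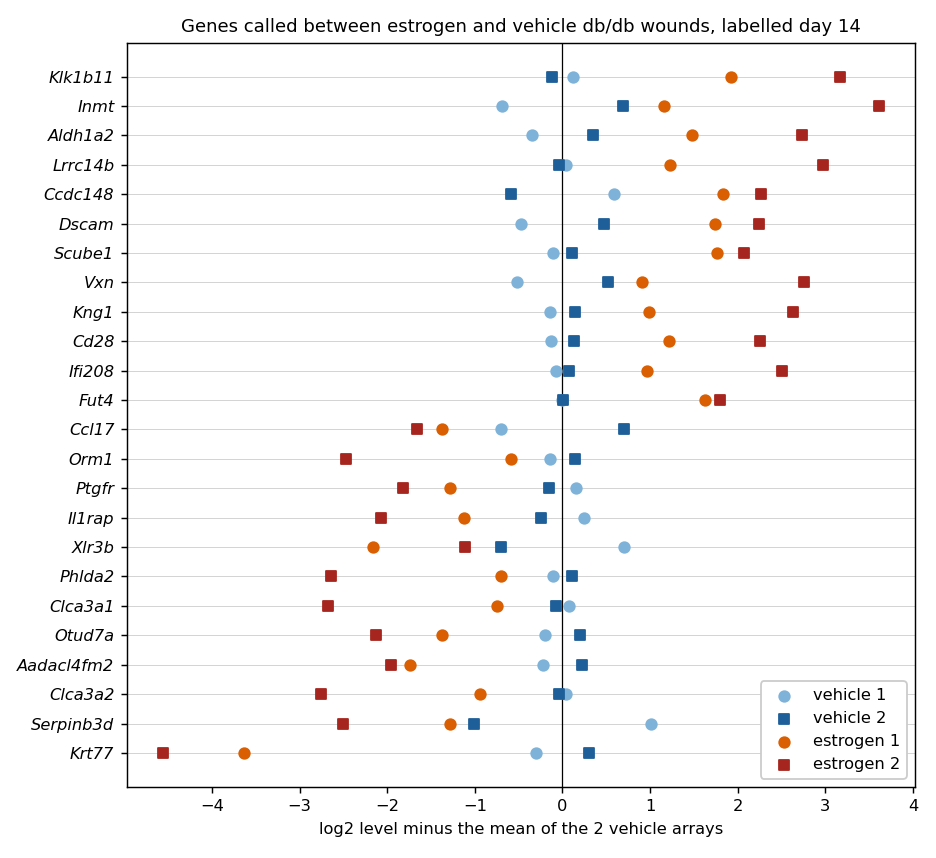
Log2 level minus the mean of the vehicle arrays (x axis) for the 24 genes of largest fold change called in either direction, with 1 point an array. The estrogen points lie right of both vehicle points for the upper 12 genes and left of them for the lower 12, with estrogen array 2 the farther out for most of them.

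Among the genes called lower, Krt77, a keratin of suprabasal epidermis and sweat ducts, had the largest fold change. It was at −4.15 and −5.08 with estrogen and −0.83 and −0.21 with vehicle, a difference of −4.10 ± 1.82 (SE), or 17.1-fold lower. Untreated wounds were at −0.55 and −2.59, so this gene also varied between replicates of another group. The call was lost when any 1 of the 4 arrays was left out. Krt77 was also among the genes that the study listed under day 7 as lower specifically with estrogen, again against untreated wounds. Of these, 3 of 10 tested were called, Krt77 and Bcan among them. That list too was chosen on these samples and is not independent evidence.

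Ptgfr, the receptor for prostaglandin F2 alpha, was at −2.80 and −3.33 with estrogen and −1.35 and −1.67 with vehicle, 2.94-fold lower with an SE of 0.24 and an adjusted p of 0.293. Otud7a, a deubiquitinase, was at −2.55 and −3.31 with estrogen and −1.37 and −0.98 with vehicle (−1.75 ± 0.43, SE). For both genes the groups did not overlap. Ptgfr, Otud7a, Dscam, Scube1 and Klk1b24 were the 5 of 52 genes followed whose call held under every processing alternative and with any 1 of the 4 arrays left out.

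Clca3a1 and Clca3a2, near-identical chloride channel accessory genes, were at 1.86 and −0.07 and at 1.65 and −0.18 with estrogen, against 2.67 and 2.53 and against 2.62 and 2.54 with vehicle. Their probes may read each other's transcripts. Orm1, the acute-phase protein orosomucoid, was at −0.34 and −2.22 with estrogen and 0.10 and 0.40 with vehicle, and most of its difference of −1.53 lay on estrogen array 2. Ccl17, a chemokine that attracts T cells through CCR4, was at −4.11 and −4.40 with estrogen and −3.44 and −2.04 with vehicle. Serpinb3d, Aadacl4fm2 and Phlda2 were between 3.19-fold and 3.72-fold lower. Xlr3b and Il1rap were 3.11-fold and 3.03-fold lower on the probe named, but their second probes gave −0.55 and −0.29. Without estrogen array 2 none of these 9 genes but Xlr3b was called. Without vehicle array 1 Ccl17 alone of them was called, and without vehicle array 2 Serpinb3d, Xlr3b and Il1rap were, while Aadacl4fm2 and Xlr3b were lost without estrogen array 1.

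Some genes were well above background in 1 group alone, for which the fold is a lower bound, taken against the faintest signal that counted as above background. With estrogen, ccdc198 was at −5.94 and −5.18 and at least 3.65-fold higher (adjusted p = 0.0943), Olfr792 at −6.10 and −5.68 and at least 2.90-fold higher (adjusted p = 0.0943), and Olfr1303 at least 3.25-fold higher (adjusted p = 0.186). An adjusted p of 0.0943 was the lowest of the comparison, and it belonged to probes that were not well above background with vehicle. Both Olfr genes encode olfactory receptors. With vehicle alone, Strip2, which encodes a protein of the striatin-interacting complex, was at −5.25 and −5.14 and at least 3.88-fold lower with estrogen (adjusted p = 0.262), but its second probe gave −0.30. Prl7b1, a placental prolactin-like hormone, and Olfr112 were at least 2.97-fold and 2.70-fold lower, and Prl7b1 was not called without estrogen array 1 or without vehicle array 2. With the normexp correction, which compresses dim signals, none of these genes was called. In all, 51 called probes were well above background on neither estrogen array and 24 on neither vehicle array.

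The cell cycle list moved in one direction without a call. Of 46 genes of DNA replication and mitosis tested, 0 were called, yet for 39 both estrogen arrays lay below both vehicle arrays, against 21.1% of all probes. With normexp it was 38 of 46, against 4648 of all 28976 probes. Mki67, the proliferation antigen, was at 2.65 and 2.42 with estrogen and 2.83 and 2.92 with vehicle. Top2a, which untangles replicated DNA, was at −0.47 and −0.82 with estrogen and −0.14 and −0.20 with vehicle. Gins2, a part of the replicative helicase, was at −1.88 and −2.16 with estrogen and −1.28 and −1.26 with vehicle. The groups did not overlap for any of the 3, and their differences were below 2-fold. The differences ran from −0.79 to −0.16 over the list, with a median of −0.36. Estrogen array 2 was below the vehicle mean for all 46 and estrogen array 1 for 42, and within slides the medians were −0.19 and −0.53. Genes of the cell cycle vary together, so their number does not measure the strength of the pattern.

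Genes of sebaceous glands and of lipid synthesis, which supply the skin's sebum, mostly lay below vehicle on both estrogen arrays with 1 call. Of 30 tested, both estrogen arrays lay below both vehicle arrays for 22, against 21.1% of all probes. The median was −0.51, with −0.40 on estrogen array 1 and −0.48 on array 2. Elovl6, which lengthens saturated fatty acids, was the 1 called, at 2.30 and 2.49 with estrogen and 3.63 and 3.62 with vehicle, a 2.34-fold difference. Scd1, which desaturates them, differed by −0.88 ± 0.39 (SE) and was not called. Awat1, which makes the wax esters of sebum, and the acyltransferase gene Dgat2l6 differed by −1.43 ± 0.70 (SE) and −1.55 ± 0.73 and were not called. For each of these the groups did not overlap. Untreated wounds stood at 2.08 and 1.87 for Elovl6, closer to estrogen than to vehicle. The call of Elovl6 was lost without estrogen array 2 and without vehicle array 2.

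Among leukocyte lists, the antigen-presenting list (MHC class II and dendritic cell genes) had a median of −0.54. In it 8 of 16 genes were lower on both estrogen arrays, against 21.1% of all probes. H2-Aa, a class II chain, was at −2.92 and −2.69 with estrogen and −2.10 and −1.57 with vehicle, and was not called. In the same list Cd83, an activation marker of dendritic cells, was called higher at −0.29 and 0.17 against −1.54 and −1.51, and H2-DMb2, a chaperone of class II loading, was called lower but was not well above background with estrogen. The list therefore held calls in both directions, and the call of Cd83 was lost without estrogen array 2, vehicle array 1 or vehicle array 2. The list median was −0.19 without vehicle array 2. Mast cell genes had a median of −0.69 over 13 genes with 0 calls, and Cma1, a mast cell chymase, was at −0.86 and −0.50 with estrogen and 0.62 and −0.06 with vehicle. With the normexp correction that median was −0.38.

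Macrophage genes had a median of 0.20 over 25, and 13 lay above vehicle on both estrogen arrays, against 19.3% of all probes. Ms4a7, a macrophage membrane protein, was at 4.34 and 4.66 with estrogen and 3.54 and 3.91 with vehicle, and was not called. Marco, a scavenger receptor, was the 1 called and went the other way, at 2.12 and 1.20 with estrogen and 3.59 and 2.70 with vehicle (−1.49 ± 0.66, SE), while untreated wounds stood at −1.36 and −0.97, and it was not called without estrogen array 2 or without vehicle array 1. Of the 23 genes of alternatively activated macrophages tested, Ccl17 alone was called, lower. Vessel genes had 0 calls among 36 and a median of 0.18. Kdr, the main receptor for VEGF on endothelium, was at 3.16 and 3.09 with estrogen and 2.53 and 2.68 with vehicle, with no overlap and less than 2-fold between groups.

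Muscle and barrier genes set the estrogen arrays against each other. All 30 fast muscle genes were more than 2-fold above both vehicle arrays on estrogen array 2, and 11 were more than 2-fold below both on estrogen array 1. Their levels, summed on the linear scale in units of each array's 75th percentile, were 200.1 and 1907 with estrogen, 357 and 482 with vehicle, and 1264 and 791 in untreated wounds. Slow muscle genes summed to 96.4 and 307 with estrogen and 106 and 107 with vehicle. Myh7, the slow and cardiac myosin heavy chain, was at −4.37 and 5.84 with estrogen, −4.47 and −4.14 with vehicle and 5.65 and 4.67 untreated. It lay farthest from vehicle of all named genes on estrogen array 2, followed by Myl2 and Myl3, also of slow muscle. The summed muscle level was thus above that of untreated wounds on estrogen array 2 and below that of vehicle wounds on estrogen array 1. The median differences between the groups, 0.80 for fast and 1.16 for slow muscle, with 0 calls in either list, average a low and a high array.

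Barrier genes, which build the cornified layer, were the reverse. The 33 tested summed to 565 and 163 with estrogen, 389 and 409 with vehicle and 349 and 418 untreated, and 24 of them were more than 2-fold below both vehicle arrays on estrogen array 2. Their median was 0.54 on estrogen array 1 and −1.34 on estrogen array 2. Krt10, the keratin of differentiating keratinocytes, was at 6.52 and 3.13 with estrogen and 6.33 and 6.08 with vehicle on the probe used to check the tissue. Basal Krt14 varied less, at 7.29 and 6.57 with estrogen and 7.30 and 7.04 with vehicle. Wound-edge cornified genes had medians of −0.05 on array 1 and −1.89 on array 2, antimicrobial genes 0.01 and −1.38, inflammatory cytokines 0.12 and −0.91, and neutrophil genes 0.22 and −0.70. None of these last 4 lists held a call, and in each estrogen array 1 was near vehicle while estrogen array 2 was below it.

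**Figure D5:**
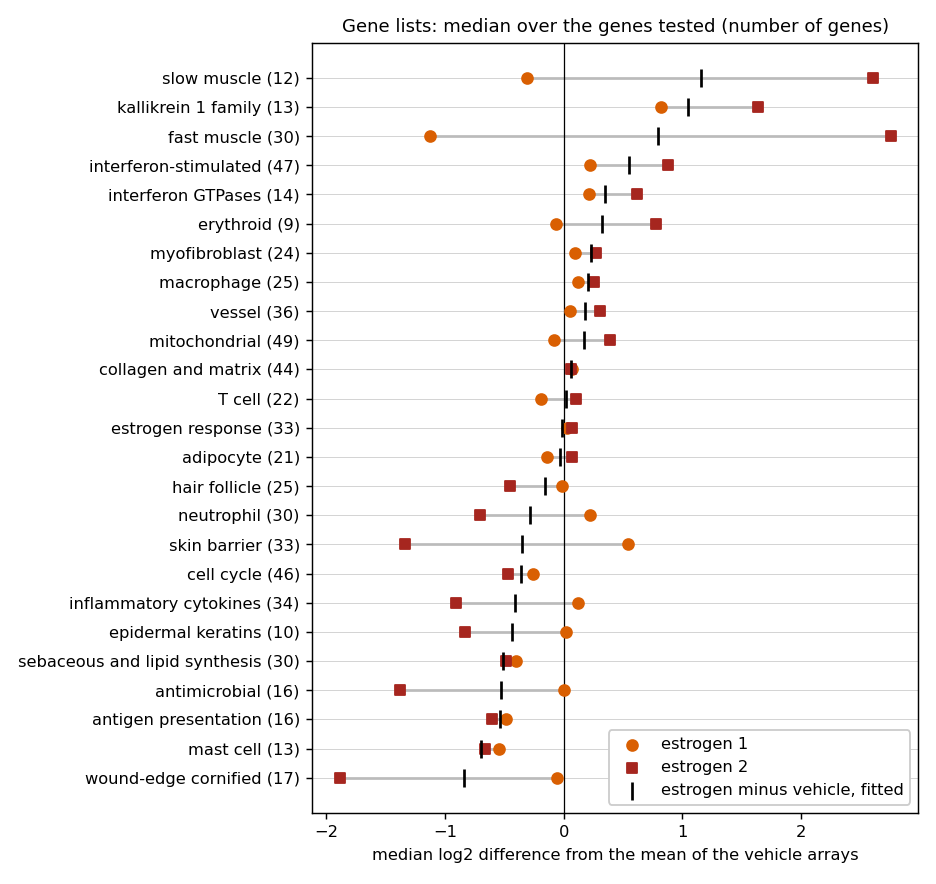
Median log2 difference from the mean of the vehicle arrays (x axis) for each of 25 gene lists, with the number of genes tested in brackets, on estrogen array 1 (circle) and estrogen array 2 (square), and the median fitted difference as a bar. The arrays lie close together for the sebaceous, mast cell, antigen presentation and cell cycle lists and far apart for muscle, barrier and wound-edge cornified genes.

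On estrogen array 1 alone, other genes stood out. Syt10, a synaptotagmin, was at −0.74 against 2.81 and 2.80 with vehicle, while estrogen array 2 read 2.34. Aqp5, the water channel of sweat and salivary glands, was at −0.72 against −3.15 and −3.09, while estrogen array 2 read −3.51. Each was a property of 1 array, and neither gene was called. On estrogen array 2 alone, Mmp9, the gelatinase of neutrophils and wound-edge keratinocytes, was at −2.87 against 0.33 and 0.10, and estrogen array 1 read −0.05.

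The difference between estrogen and vehicle was also set against the same difference on the arrays labelled day 7, which share no array with it. Of 30632 probes, 2192 (7.16%) were called for this difference, and 3 passed adjustment. For Pgr the estrogen effect was 1.02 on the arrays labelled day 14 and 2.68 on those labelled day 7, a difference of −1.66 that was called. For Klk1b11 it was 2.54 and 3.23, and for Ifit3 1.26 and 2.47, differences that were not called. Marco was lower with estrogen on both labels, at −1.49 for day 14 and −4.45 for day 7, and the difference of 2.97 between them was called. Elovl6, at −1.23 and 0.92, was called lower with estrogen for the arrays labelled day 14 and lay higher for those labelled day 7, and that difference was called. The labels and the study's tables disagree on which of these sets came first.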

How the data were processed

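RNA of wounds was read on 16 one-colour 4x44K mouse arrays. The intensity of each spot was made by the authors with Feature Extraction 11.0.1.1, which subtracted background and removed spatial trends without scaling between arrays. The deposited value table holds a ratio, the intensity over a constant for each array, and served as an alternative. On the 4 arrays compared that constant was the 75th percentile, to within 0.1% for nearly all probes, and on 6 of the others it was another value. Groups, labelled days and replicate numbers were taken from the labels.

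Control probes and outlier spots were left out, spots of a probe were averaged, log2 was taken and each array's 75th percentile subtracted. RefSeq named 27421 of 39429 probes. limma 3.58.1 (R 4.3.3) fitted 8 group means over all probes and all 16 arrays, leaving 8 residual degrees of freedom, and p was adjusted (Benjamini-Hochberg) over the 28976 probes whose signal stood well above background on the 2 estrogen arrays, on the 2 vehicle arrays, or on all 4. Calls needed an unadjusted p below 0.05 and a fold above 2, the study's thresholds. A list used the probe of highest mean over the 16 arrays for each gene. The script was tested on simulated data.

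The comparison, its gene lists and the rules for named genes were chosen with earlier results of these data known. Named were the 12 genes a direction of largest fold change that were called, without overlap and well above background on all 4 arrays, 6 genes a direction farthest from vehicle on each estrogen array, 4 genes a direction well above background in 1 group alone, list members that were called and set lead genes of the lists, leaving out predicted and RIKEN genes. Some genes enter the counts and are not reported by name here. No set test was run. The lists with 0 calls that are not described by their genes (adipocyte, hair follicle, melanocyte, B cell, cytotoxic, erythroid, matrix metalloproteinase, myofibroblast, growth factor, glycolysis, mitochondrial, clock, Mup) had medians between −0.15 and 0.35. The collagen list had a median of 0.06 and 1 call (Bcan, lower), and the nerve list 0.27 and 1 call (Scn7a, higher).

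The alternatives were normexp (offset 50), quantile normalization, no filter, a filter on all 4 arrays, a floor on dim signals, the value table, the 4 arrays alone, slide and replicate number as blocks (statmod 1.5.0), each array left out, and, chosen after seeing the data, a shared spread estimated on the kept probes alone. Same-numbered arrays of the estrogen and vehicle groups shared a slide, and their deviations from the group means had a correlation of 0.273 across probes. The untreated and WT groups labelled day 14 each had both arrays on the same slide. Columns of unassigned samples did not occur.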

Additional observations from a re-analysis of the deposited data

Results flagged for a closer look

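The difference between estrogen and vehicle differed between the labelled days, after limma's adjustment over 30632 probes, at 3 probes. For Gzmn, a granzyme, the difference between the days was 5.29 (adjusted p = 0.00501), with −2.91 and −3.61 on the estrogen arrays and −3.54 and −3.55 on the vehicle arrays labelled day 14, and a fitted estrogen effect of −5.01 on the arrays labelled day 7. On the latter it was well above background on neither estrogen array, so that the fitted sizes are no bounds, and vehicle stood at least 9.29-fold above estrogen. For Sprr2i, a cornified envelope gene, it was 10.7 (adjusted p = 0.0452), with 5.34 and 3.54 with estrogen and 5.35 and 5.22 with vehicle, and a fitted −11.5 on the arrays labelled day 7, where it too was well above background on neither estrogen array and vehicle stood at least 2857-fold above estrogen. A probe without a gene name differed by −4.22 (adjusted p = 0.0350), at −5.09 and −4.84 with estrogen and −3.87 and −4.44 with vehicle, and 3.41 on the arrays labelled day 7. For all 3 the effect under day 14 was small and not called.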

How the results depend on the processing

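Of 285 calls, 0 held after Benjamini-Hochberg adjustment. With normexp 114 probes were called, without a filter 638, with all 4 arrays well above background 179, and with 1 array left out between 228 and 1844, the highest without estrogen array 1. Probes past adjustment numbered 4 with quantile normalization and 1 with the floor, and between 0 and 2 with 1 array left out. The replicate block gave 266 calls, or 394 on the 4 arrays alone, and slide as a block gave 308 (fixed) and 252 (random). Interferon genes called higher numbered 6 with quantile, 2 on the 4 arrays alone with or without the replicate block, 8 with the replicate block over all arrays, and between 0 and 22 with 1 array left out. Kallikrein genes called numbered 2 with normexp and between 3 and 8 with 1 array left out, and their median ran from 0.82 to 1.64. With normexp 128 probes lay beyond 2-fold on estrogen array 1 (243 with all 4 arrays well above background) and 1276 on estrogen array 2, and 1239 were called between the labelled days. The causes of these shifts were not tested, apart from the filters, which change how many probes are tested. The share of calls that were higher was 51.6%, between 43.1% and 61.5% over the settings, with 59.6% under normexp. Of 52 called genes that were followed, 0 changed direction in any setting, normexp lost 25 calls, and leaving out estrogen array 2 lost 34. In 75 calls 1 group was not well above background on either array, so that their folds are bounds.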

Other observations

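Over all 39429 probes, 142 were well above background on all 4 oil-treated arrays labelled day 14, with or without estrogen, and on neither untreated db/db array of that label, and 36 showed the reverse. The 142 probes named 72 genes. Uts2, which encodes the vasoactive peptide urotensin 2, was at −3.50 and −2.69 with estrogen and −6.98 and −3.19 with vehicle, and at least 17.9-fold above the untreated wounds on the estrogen arrays and 16.8-fold on vehicle array 2, but on vehicle array 1 the bound was 1.21-fold. Nexmif was at −5.13 and −4.64 with estrogen and −5.91 and −5.15 with vehicle, at least 4.05-fold above untreated. These genes were chosen after their values were seen, and no test was made of them.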
